A study of Mus musculus with 12 samples.

Results

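The genes of the proteasome were followed in mouse liver under a high-fat diet given with or without lycopene. They were taken by their symbols (Psma, Psmb, Psmc, Psmd, Psme, Psmf and Psmg), which gave 49 genes of the 25033 entries in the Ribo-seq table. They comprise 8 genes of the alpha ring, 11 of the beta ring, 6 ATPases, 14 non-ATPase subunits, 6 activators and inhibitors and 4 assembly chaperones. Both groups were male C57BL/6 mice, 16 weeks of age, fed the high-fat diet for 8 weeks: HFD received the diet alone (3 libraries, HFD1 to HFD3) and LYC received it with lycopene, the red carotenoid of tomato (3 libraries, LYC1 to LYC3). Lycopene stands in the titles of the LYC samples, whereas their treatment label names only the diet, and no group on a normal diet was analysed here. The labels also speak of pooled material before library construction, so p-values measure the spread between these libraries. Ribo-seq sequences the stretches of mRNA that ribosomes protect from nuclease and so reads which messages are being translated.

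The proteasome is the barrel-shaped protease that degrades most proteins tagged with ubiquitin. Its core particle stacks rings of alpha subunits, which gate the entrance, around rings of beta subunits, of which Psmb5, Psmb6 and Psmb7 carry the active sites. The regulatory particle caps the core: its ATPases (Psmc) unfold the substrate and thread it in, and its non-ATPase subunits (Psmd) bind ubiquitin chains, hold the lid together and, in the case of Psmd14, cut the chain off. Under interferon the active subunits are replaced by Psmb8, Psmb9 and Psmb10 to form the immunoproteasome, which favours peptides for antigen presentation. In most cells the subunit genes are regulated together, and the transcription factor Nfe2l1 raises them when proteasome capacity falls short.

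Depth differed between the groups and limits every value below. The libraries held 834410 to 4405541 reads in HFD and 311050 to 412116 in LYC, a 6.91-fold difference between the medians, and the 49 genes together had 21188 reads in HFD and 3211 in LYC. Levels are given as RPKM (reads per kilobase of transcript, relative to the reads of the library) divided by a scaling factor for each library (TMM), here called scaled RPKM. Hepatocyte markers were present in every library, with a summed level of 34403 to 38287 scaled RPKM in HFD and 28312 to 40161 in LYC. Cps1 and Pck1, 2 of the 7, were called higher in LYC by the rule set out below for the proteasome genes. That rule called 7.11% of all tested genes higher and 13.5% in either direction. Macrophage and Kupffer markers, which matter for the immunoproteasome, summed to 116 to 127 scaled RPKM in HFD and to 123 to 172 in LYC. Markers of T and NK cells summed to 0 to 2.68 scaled RPKM in HFD and to 0 in LYC, with Nkg7 at 0 in all libraries, and those of B cells to at most 2.21 and 2.15. The neutrophil list summed to 2.52 to 2.90 scaled RPKM in HFD and 20.5 to 26.6 in LYC, on a total of 20 and 14 reads, with Camp at 0 throughout. The erythroid list (3 markers) summed to 298 to 495 scaled RPKM in HFD and 497 to 775 in LYC, without overlap. Of its 2 tested markers 1, Alas2, was called higher, against the same 7.11%. The endothelial list summed to 48.4 to 66.2 and 10.7 to 109, the stellate list to 76.6 to 141 and 98.6 to 119, and the cholangiocyte list to 3.94 to 4.94 and 0.773 to 2.56. Small non-coding RNA genes took 2.59% to 4.14% of the reads in HFD and 8.70% to 13.3% in LYC. In bulk liver, fewer cells of a type and less RNA per cell cannot be told apart.

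A second deposited table, labelled as mRNA, did not give an independent reading of these genes. After each gene was centred on its mean, each of its libraries correlated at 0.917 to 0.944 with 1 Ribo-seq library over 3475 genes, and at no more than 0.651 with any other. In LYC the matching libraries carried the same number, but in HFD its libraries 1, 2 and 3 matched Ribo-seq libraries 2, 3 and 1. For Psma1, for example, it listed 274, 44 and 170 counts in HFD and 34, 39 and 33 in LYC, against 166, 268 and 44 and the same 34, 39 and 33 reads in the Ribo-seq table. Its test called 5 of 39 proteasome genes higher in LYC (Psma1, Psma6, Psmc5, Psmd6 and Psmd14) by edgeR's quasi-likelihood test, at a background of 16.6% of all genes called in either direction, 9.31% higher and 7.33% lower. These calls are not counted as separate evidence, and no translational efficiency was computed. Which assay each table stems from cannot be told from these values.

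Psma1 to Psma7 and the ATPases each had similar levels in the Ribo-seq libraries per base of transcript, and the other parts spread wider. Without an independent reading of mRNA, these levels do not give translation per message. In HFD, the alpha subunits Psma1 to Psma7 had means of 36.5 (Psma7) to 58.5 (Psma4) scaled RPKM, a 1.60-fold span. The 6 ATPases, which occupy the particle in equal numbers, ranged from 28.0 ± 4.38 (SD, n = 3; Psmc5) to 41.9 ± 7.37 (Psmc1), a 1.50-fold span. The constitutive beta subunits spread from 40.2 ± 14.1 for Psmb2 to 104 ± 16.0 for Psmb7, a 2.58-fold span. The 14 non-ATPase genes ran from 4.99 for Psmd10 to 52.0 for Psmd4, a 10.4-fold span. Without Psmd5, Psmd9 and Psmd10 that span was 2.26-fold.

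Per base of transcript, the genes for assembly chaperones among the 49 were lower than most subunits. Pomp, a core chaperone outside the 49, had an HFD mean of 56.9 scaled RPKM. Psmf1 (5.66) and Psmb9 (4.76), which are not chaperones, were also low. Psmd5, Psmd9 and Psmd10, which act as chaperones while the base of the regulatory particle is built, had HFD means of 10.8 ± 1.35, 5.58 ± 1.55 and 4.99 ± 0.965 scaled RPKM. The lowest of the other 11 non-ATPase genes, Psmd13, had 23.0 ± 4.57, and none of its HFD libraries overlapped those of the 3 chaperones. The chaperones of the core, Psmg1 to Psmg4, ranged from 3.84 (Psmg2) to 11.6 (Psmg3). Psma8, the alpha subunit known from testis, had 2 reads in all 6 libraries, and Psmb11, known from thymus, had 6. Psme2b, a retrotransposed copy of Psme2, had 29 reads, which may in part come from its parent gene.

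These levels are per base of transcript, whereas footprints come from the coding part, so a long untranslated region lowers a gene's value. Psma3 was the extreme of the alpha ring: 768 of its 2398 transcript bases are coding (32.0%). Per coding length it rose from 46.1 to 144 scaled RPKM in HFD, and the span of the alpha ring widened from 1.60-fold to 2.83-fold. The ATPases kept a narrow span of 1.66-fold per coding length, against 7.01-fold for the 14 non-ATPase genes. Among the chaperones, Psmd9 (25.8% coding) went from 5.58 to 21.6 in HFD and then overlapped Psmd13, with 21.5, 27.6 and 15.6 against 29.8, 38.9 and 26.7. Psmg3 (42.4% coding) went from 11.6 to 27.5 and overlapped Psmc5, whose mean was 29.3. Outside the chaperones, Psmf1 (24.6% coding) went from 5.66 to 23.1 in HFD, and Psmb9 (81.9% coding) from 4.76 to 5.81. Psmd5 (13.5) and Psmd10 (10.4) stayed below Psmd12, then the lowest of the other non-ATPase genes (30.6). A comparison between the groups uses the same length in both.

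**Figure D1:**
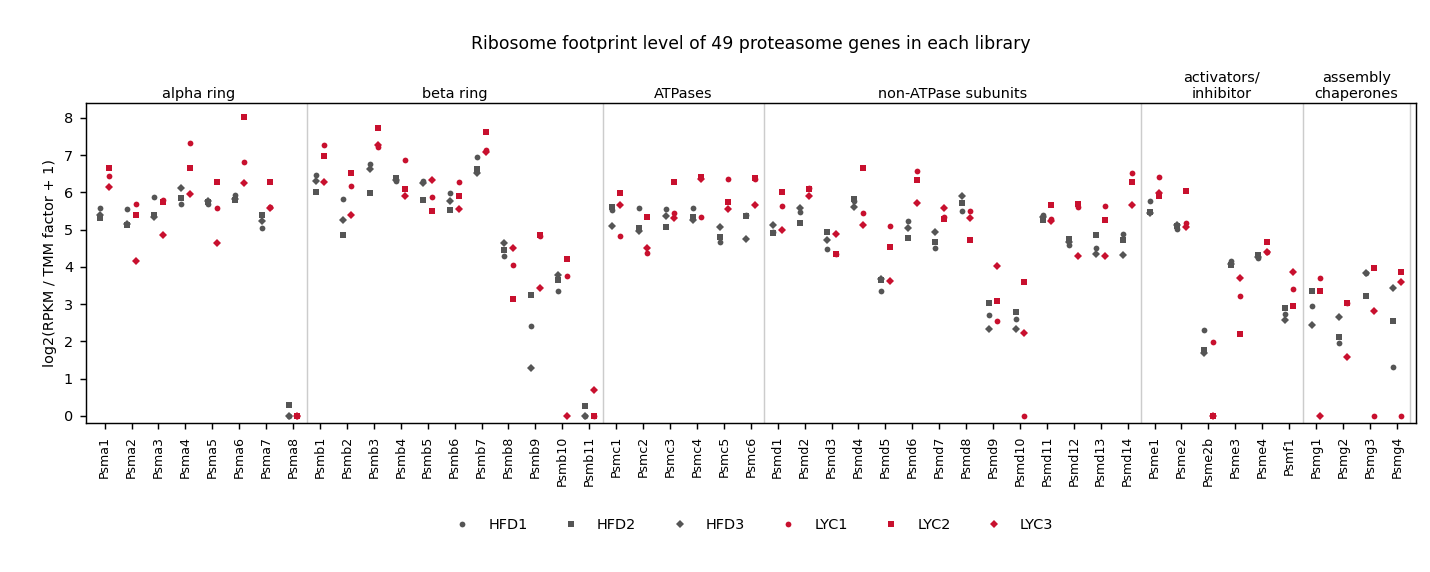
Level of the 49 proteasome genes in each of 6 Ribo-seq libraries, as log2 of scaled RPKM plus 1, with HFD in grey on the left and LYC in red on the right of each gene. Psma1 to Psma7, Psmb1 to Psmb7 and the ATPases lie in the upper band, the immunoproteasome subunits and chaperones lie lower on this scale, Psma8 and Psmb11 lie near 0, and LYC libraries scatter more than HFD libraries.

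Of the 49 genes, 40 had enough reads to be tested. Psma8, Psmb9, Psmb11, Psmd10, Psme2b and Psmg1 to Psmg4 did not. Thus 4 of 4 core chaperones among the 49 and 1 of 3 immunoproteasome subunits have no test. A gene was called when its log2 fold change was above 1 in size and its unadjusted p below 0.01, by limma on log2(scaled RPKM + 1) over 5671 genes. The added 1 understates the change of low genes.

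Proteasome genes as a group stood somewhat higher in LYC, but few moved far enough to be called. Psmd14, Psmd6 and Psmc5, all 3 of the regulatory particle, rose in LYC. This is 7.50% of the 40 tested, below the 13.5% of all genes called in either direction and close to the 7.11% called higher. No member was called lower in LYC, against 6.38% of all genes; at an unadjusted p below 0.05, 11 members passed limma's test (all genes: 30.3%), of which Psme3 alone was lower in LYC, and DESeq2 and edgeR also called 0 members lower. The log2 fold change (LYC minus HFD) was above 0 in 29 of 40 members (72.5%, against 45.2% of all genes tested), and its median was 0.53, against -0.09 for all genes. The values ranged from -1.05 for Psme3 to 1.52 for Psmd14. The members' median fell to 0.32 without LYC2 and lay between 0.41 and 0.49 without any other single library. The erythroid markers (298 to 495 scaled RPKM in HFD, 497 to 775 in LYC) and the share of small non-coding RNA reads (2.59% to 4.14% and 8.70% to 13.3%) were also higher in LYC without overlap, as was the neutrophil list (2.52 to 2.90 and 20.5 to 26.6), while the cholangiocyte list was lower (3.94 to 4.94 and 0.773 to 2.56). Their part in the shift was not tested.

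The members' median moved with the scaling of the libraries, and so did that of all genes. When the libraries were scaled by their totals alone, the median of all genes moved from -0.09 to -0.36 and that of the members from 0.53 to 0.24. The calls of all genes then split into 235 higher and 658 lower, in place of 403 higher and 362 lower. The members are also short, with a median transcript of 1444.5 bases against 2984 for all genes tested. After a correction for gene length in each library, the median was 0.35 for the members and -0.03 for all genes, and 25 of 40 members were above 0.

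LYC3 lay apart from LYC1 and LYC2 in these genes. Relative to the HFD mean, the median member was 0.47 higher in LYC1, 0.68 in LYC2 and 0.07 in LYC3 on the log2 scale. LYC3 was the lowest LYC library in 26 of the 40 members, against 34.9% of all genes, and LYC2 was the highest in 19, against 34.5%. Without LYC3, 9 members were called higher (Psma1, Psma4, Psma6, Psmb9, Psmc5, Psmc6, Psmd5, Psmd6 and Psmd14) and 1 lower (Psme3) of 42 tested, at a background of 18.2% called in either direction, 7.81% higher and 10.4% lower.

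**Figure D2:**
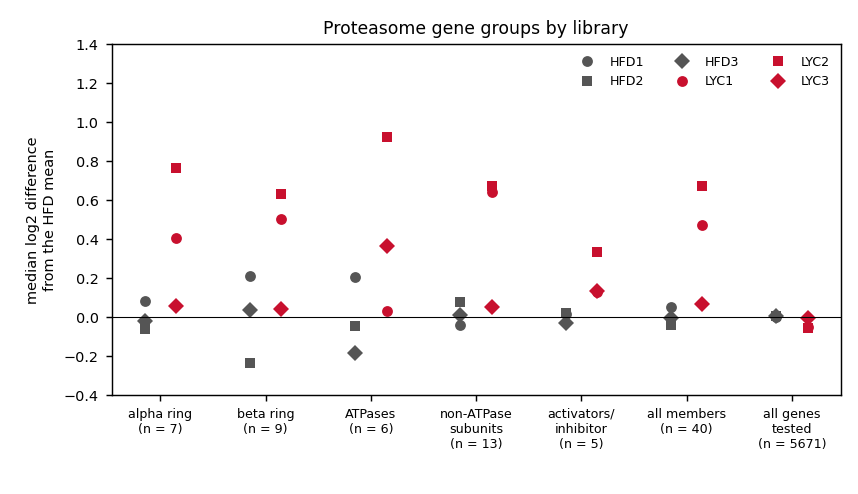
Median log2 difference from the HFD mean in each library, for the members of each group that were tested and for all 5671 genes. LYC2 is highest in every group of proteasome genes, LYC3 lies at 0.13 or below in all groups but the ATPases (0.37), and the median of all genes stays near 0.

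The share of reads on proteasome genes followed the same order of libraries. Outside small non-coding RNA genes, they held 0.324%, 0.325% and 0.310% of the reads in HFD1 to HFD3 and 0.361%, 0.478% and 0.312% in LYC1 to LYC3. LYC1 and LYC2 lay above all HFD libraries, and LYC3 lay among them. The class left out of this share was itself larger in LYC (8.70% to 13.3% of reads) than in HFD (2.59% to 4.14%).

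By part of the particle, the median log2 fold change was 0.60 for 7 alpha subunits, 0.14 for 9 beta subunits, 0.50 for 6 ATPases, 0.53 for 13 non-ATPase subunits and 0.35 for 5 activators and inhibitors. These medians moved when single libraries were left out. That of the beta ring turned to -0.04 without LYC1 and was 0.45 without HFD1, 0.29 without HFD3 and 0.50 without LYC3. Without LYC2 the medians were 0.36 for the alpha subunits, 0.25 for the ATPases and 0.12 for the activators and inhibitors. Of 16 core genes 9 were above 0 and 0 were called in the main fit. Psma1 and Psma6 were called higher by edgeR's quasi-likelihood test (all genes: 496 of 5671 higher). Without LYC3, Psma1, Psma4, Psma6 and Psmb9 were called higher (all genes: 7.81%). Of 19 regulatory particle genes 16 were above 0. Of the 19, 3 (15.8%) were called, all of them higher, against 13.5% of all genes called in either direction and 7.11% called higher. The 19 include the assembly chaperones Psmd5 (0.85) and Psmd9 (0.53). The value of Psmd9 is the median of the non-ATPase genes and of the 19. The medians of the core and the regulatory particle were 0.36 and 0.53, that of the core being 0.16 without LYC1, 0.25 without LYC2 and 0.64 without LYC3, and their difference was not tested. Among the 14 constitutive core subunits alone the median was 0.58, and the 2 immunoproteasome subunits tested had negative values.

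The balance between core and regulatory particle overlapped between the groups. The mean level of the constitutive core was 1.60, 1.47 and 1.80 times that of the ATPases in HFD1 to HFD3 and 1.93, 1.61 and 1.36 times in LYC1 to LYC3. Against the non-ATPase subunits the ratio was 2.43, 1.91 and 2.12 in HFD against 2.12, 2.31 and 2.05 in LYC. The mean of the non-ATPase genes includes the chaperones Psmd5, Psmd9 and Psmd10. LYC1 and LYC3 stood at the opposite ends of the first ratio, with HFD between them.

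Individual core subunits scattered more in LYC. The SD of log2 level across the 14 constitutive core genes was 0.52, 0.49 and 0.52 in HFD1 to HFD3 and 0.67, 0.83 and 0.89 in LYC1 to LYC3. The median gene behind it had 179.5, 323.5 and 56 reads in HFD but 34, 36 and 25.5 in LYC. Depth moved with this difference, and its part in it was not tested.

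**Figure D3:**
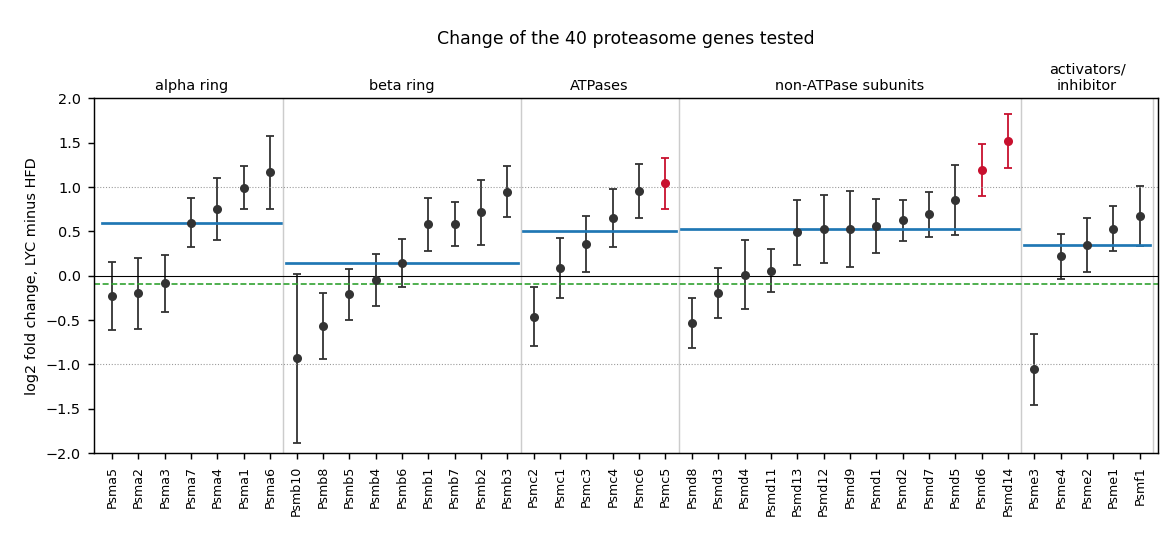
Log2 fold change (LYC minus HFD) of the 40 proteasome genes tested, with bars of 1 SE, ordered within each group. Red points are the 3 genes called higher, blue lines the group medians, the dashed green line the median of all genes at -0.09, and dotted lines the limits of 1 and -1.

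Among the 40 tested members, the highest fold change was that of Psmd14, the metalloprotease of the lid that removes the ubiquitin chain from a substrate before it is degraded (chr2:61711694-61800376, plus strand). Its level was 28.5, 25.3 and 18.9 scaled RPKM in HFD1 to HFD3 and 90.3, 76.9 and 50.0 in LYC1 to LYC3, on 125, 217 and 25 and 44, 37 and 29 reads. Every LYC library lay above every HFD library. Psmd14 had a log2 fold change of 1.52 ± 0.30 (SE), at an adjusted p of 0.0161 (limma, Benjamini-Hochberg). Psmd14 was called in all 20 settings tried, and leaving out single libraries gave 1.32 to 1.72.

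Psmd6, a structural subunit of the lid (chr14:14112185-14120945, minus strand), was also called. It had 36.3, 26.5 and 32.2 scaled RPKM in HFD and 94.6, 79.1 and 51.6 in LYC. The groups did not overlap, and LYC3 was again nearest to HFD. Its log2 fold change was 1.19 ± 0.29 with an adjusted p of 0.0326 (limma, Benjamini-Hochberg). The call was lost without HFD2 (1.01), without HFD3 (1.17) and without LYC1 (1.00), with total library size (0.90), and when all genes under 10 reads in any library were removed before the fit (0.92).

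Psmc5, one of the ATPases that thread the substrate into the core (chr11:106256185-106263112, plus strand), was the last of the 3. It had 24.2, 27.0 and 32.8 scaled RPKM in HFD and 81.7, 52.7 and 45.7 in LYC, again without overlap. Its log2 fold change was 1.04 ± 0.29, and its adjusted p of 0.0508 (limma, Benjamini-Hochberg) missed 0.05. The call was lost without HFD1 (0.92), HFD2 (0.96), HFD3 (1.12) or LYC1 (0.80). It was also lost in 7 of 13 other settings: total library size (0.75), a pseudocount of 5 (0.95), no filter (0.91), at least 10 reads in each library (0.78), the replicate block (1.04), and the length correction without or with that block (0.86). In HFD Psmc5 was the lowest ATPase. In LYC Psmc2 had the lowest mean of the 6.

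The adjusted p was below 0.05 in 3 members (limma, Benjamini-Hochberg), against 11.8% of all genes (6.61% with a higher level in LYC). They were Psmd14, Psmd6 and Psma1, the last named here after its values were seen. Psma1 had 46.5, 38.3 and 40.8 scaled RPKM in HFD and 85.6, 99.6 and 69.8 in LYC, with a log2 fold change of 0.99 ± 0.24 just under the limit of 1. Its call turned with the fit: it was called in 7 of 20 settings, among them edgeR's quasi-likelihood test and the fit without LYC3. In all, 16 of the 40 members showed no overlap between the groups, 14 higher in LYC and 2 lower, against 37.9% of all genes (18.9% higher and 19.0% lower).

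Among the tested alpha ring genes, Psma6 had the highest and Psma5 the lowest fold change. Psma6 had 60.3, 54.4 and 56.0 scaled RPKM in HFD and 111, 257 and 74.5 in LYC. The LYC libraries lay above HFD but spread 3.45-fold among themselves, and the log2 fold change of 1.17 ± 0.41 had an unadjusted p of 0.0200 (limma) and was not called. Without LYC3 it was called (1.51), as it was by edgeR's quasi-likelihood test (1.36). Psma5 had 50.2, 52.2 and 53.5 in HFD against 46.8, 76.4 and 24.0 in LYC. HFD was tight, LYC lay on both sides of it, and the log2 fold change was -0.23 ± 0.39. The 95% interval of Psma5 ran from -1.11 to 0.65, so neither direction can be read.

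Among the tested beta ring genes, Psmb3, a non-catalytic subunit, had the highest fold change. It had 108, 61.7 and 97.1 scaled RPKM in HFD and 147, 210 and 153 in LYC, without overlap. Its log2 fold change of 0.95 ± 0.28 had an adjusted p of 0.0633 (limma, Benjamini-Hochberg) and was not called.

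None of the 3 active-site subunits of the constitutive core was called. Psmb7, with trypsin-like activity, had 122, 98.2 and 91.2 scaled RPKM in HFD and 140, 195 and 134 in LYC (log2 fold change 0.58 ± 0.25). Psmb6, which cuts after acidic residues, had 62.7, 45.2 and 53.9 in HFD against 76.3, 58.8 and 46.1 in LYC (0.14 ± 0.27). Psmb5, with chymotrypsin-like activity, had 77.8, 54.4 and 74.8 in HFD against 58.1, 44.2 and 79.2 in LYC (-0.21 ± 0.29). LYC stood above HFD in every library for Psmb7, while the groups overlapped for the other two. The 95% intervals of the fold changes overlapped (0.01 to 1.14 for Psmb7, -0.47 to 0.76 for Psmb6, -0.86 to 0.44 for Psmb5), and the differences between the 3 genes were not tested. The exon of Psmb5 shares 109 bases with Mir686.

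The immunoproteasome subunits were low in both groups. Psmb8, the counterpart of Psmb5, had 18.7, 21.0 and 23.8 scaled RPKM in HFD and 15.5, 7.86 and 21.7 in LYC, on 6, 3 and 10 reads in the latter. Its log2 fold change was -0.56 ± 0.37 (95% interval -1.41 to 0.28). Psmb10, the counterpart of Psmb7, had 9.13, 11.5 and 12.8 in HFD against 12.4, 17.7 and 0 in LYC. The log2 fold change of -0.93 ± 0.95 rested on LYC3, where 0 reads allow a level of up to 6.27 scaled RPKM (3 reads, counting error only). Without LYC3 it was 0.36.

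Psmb9, the counterpart of Psmb6, had 4.36, 8.47 and 1.44 scaled RPKM in HFD and 27.5, 27.8 and 9.88 in LYC. The groups did not overlap, but the LYC values stood on 7, 7 and 3 reads, too few for the test. As a share of the pair of Psmb9 and Psmb6, Psmb9 made up 6.50%, 15.8% and 2.61% in HFD and 26.5%, 32.1% and 17.6% in LYC, a difference of means of 17.1 percentage points. The exact two-sided permutation test gave p = 0.1, the smallest that 3 against 3 libraries allow, and 0.3 after Benjamini-Hochberg adjustment over the 3 pairs. The shares of Psmb8 (HFD: 19.3%, 27.8% and 24.1%; LYC: 21.1%, 15.1% and 21.5%) and Psmb10 (HFD: 6.97%, 10.4% and 12.3%; LYC: 8.15%, 8.30% and 0%) overlapped between groups, each with an exact p of 0.3. The macrophage list was 116 to 127 scaled RPKM in HFD and 123 to 172 in LYC beside these shares, and its part in them was not tested.

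**Figure D4:**
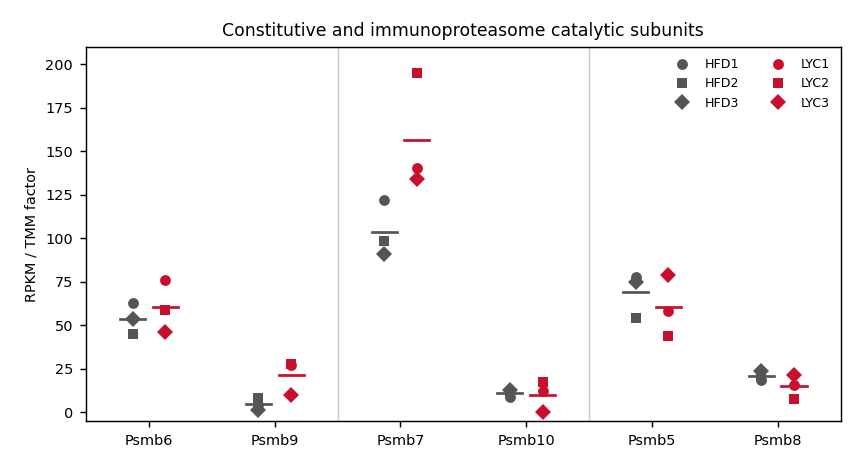
Scaled RPKM of the 3 constitutive catalytic subunits, each beside its immunoproteasome counterpart, in each HFD (grey) and LYC (red) library, with lines at the means. Psmb7 and Psmb9 show no overlap between groups, Psmb9 on 3 to 7 reads per LYC library, and the constitutive member of each pair is the more abundant one.

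Among the ATPases, 5 of 6 had a fold change above 0, with Psmc5 at one end and Psmc2 at the other. Psmc2 had 46.9, 32.3 and 30.4 scaled RPKM in HFD and 19.6, 39.7 and 21.9 in LYC, with overlap (log2 fold change -0.46 ± 0.33). The sister ATPases Psmc1, Psmc3, Psmc4 and Psmc6 lay at 0.09 to 0.95. Of these Psmc6 was separated between the groups, with HFD at 26.0 to 41.1 and LYC at 49.2 to 82.0 scaled RPKM.

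Among the non-ATPase subunits, 11 of 13 had a fold change above 0, the chaperones Psmd5 and Psmd9 among them. The scaffold Psmd2 had 35.4 to 47.1 scaled RPKM in HFD and 59.2 to 68.3 in LYC, and Psmd7, the partner of Psmd14 in the lid, had 21.7 to 29.8 and 38.1 to 46.5. Neither overlapped, and their log2 fold changes of 0.62 ± 0.23 and 0.69 ± 0.25 were not called. Psmd8, another lid subunit, went the other way: 44.6, 51.2 and 58.4 in HFD against 43.9, 25.4 and 38.6 in LYC. The groups were separated only by the gap between 44.6 and 43.9, and the log2 fold change of -0.53 ± 0.28 was not called. The ubiquitin receptor Psmd4 (0.01 ± 0.39) and the lid subunit Psmd11 (0.06 ± 0.24) had values near 0.

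Among the activators, Psme3 had the lowest fold change of the tested members. Psme3 encodes the nuclear activator that opens the core without ATP or ubiquitin. It had 16.7, 15.7 and 15.7 scaled RPKM in HFD and 8.31, 3.61 and 12.0 in LYC, on 7, 3 and 12 reads in the latter. The groups did not overlap. The log2 fold change of -1.05 ± 0.40 had an unadjusted p of 0.0279 (limma) and was not called, but without LYC3 (-1.42) and with total library size (-1.32) it was. The related interferon-inducible activators Psme1 and Psme2, which form a ring together, had 0.53 ± 0.25 and 0.35 ± 0.30. Psme4, the large monomeric activator, had 17.8, 18.9 and 18.2 scaled RPKM in HFD and 20.1, 24.4 and 20.2 in LYC (0.22 ± 0.25), and its exons share 156 bases with Erlec1.

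Psmf1, which can block the entrance of the core, had the highest fold change of the tested genes of this group. It had 5.71, 6.38 and 4.90 scaled RPKM in HFD and 9.51, 6.75 and 13.6 in LYC, without overlap but with LYC2 close to HFD2. Its log2 fold change was 0.67 ± 0.34 and was not called. Its exons share 684 bases with Tmem74b, so some reads may belong to that gene. The untested core chaperones Psmg1 to Psmg4 had 7, 7, 6 and 4 reads in all of LYC.

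The promoters of the members were read for short letter patterns. RefSeq windows (GRCm38.p6) of 250 bases upstream of the start site were found for 41 of the 49 genes (44 windows). The pattern TGANNNNGC is a loose form of the antioxidant response element bound by Nfe2l1 and Nfe2l2. It stood on either strand in 38.6% of member windows and in 35.2% of all 32851 windows. So loose a pattern is common in any window, so an excess of true elements, or its absence, cannot be read from these shares. CCAAT stood in 31.8% and 33.8%. CCGGAAG, the core of many ETS factor sites, stood in 29.5% of member windows and in 6.91% of all windows. The latter are windows of all RefSeq genes and were not matched to the members. It was found for 12 genes: Psma6, Psmc1, Psmc2, Psmc6, Psmd2, Psmd4, Psmd6, Psmd11, Psmd12, Psme3, Psme4 and Psmg1. None of the 8 beta ring genes with a window was among them, nor were Psmd14 and Psmc5, and Psmb1, Psmb2 and Psmb7 were not read. Psma6 has 2 windows, and the letters stood in the downstream one. Psmc2 also has 2 windows, and the letters stood in both.

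The stretches below show these letters in 4 genes: the called Psmd6, the top and bottom of the alpha ring and ATPases that carry it (Psma6 and Psmc2), and the tested member with the lowest fold change, Psme3. Capitals mark CCGGAAG or its reverse complement, read 5′ to 3′ on the strand of the gene, at chr14:14120958-14121017 (minus strand), chr12:55398666-55398725, chr5:21785164-21785223 and chr11:101316079-101316138 (plus strand).
Psmd6: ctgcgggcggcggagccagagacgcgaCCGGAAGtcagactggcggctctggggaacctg
Psma6: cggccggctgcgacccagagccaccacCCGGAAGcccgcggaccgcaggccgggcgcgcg
Psmc2: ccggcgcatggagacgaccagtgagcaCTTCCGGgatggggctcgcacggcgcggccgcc
Psme3: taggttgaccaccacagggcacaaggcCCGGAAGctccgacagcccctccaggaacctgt
The letters thus stood before genes with fold changes from -1.05 (Psme3) to 1.19 (Psmd6). The 11 tested members with CCGGAAG had a median log2 fold change of 0.22, with 1 called, and the 23 tested members with a window but without it had 0.53, with 2 called, against 13.5% of all genes called in either direction and 7.11% higher. The presence of these letters is a description of the window and was not linked to binding.

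Genes that work with the proteasome but carry other names were read from a separate list. Of 50 listed, 49 were in the table and 44 were tested: 5 were called higher in LYC (among them Adrm1, Cops2, Pomp and Sem1) and 1 lower (Tap1), or 13.6% against 13.5% of all genes. The median log2 fold change of the list was 0.38, and 29 of 44 were above 0. Factors bound to the particle had the highest median of the sublists described (1.01, 8 tested, 3 called), followed by the unfoldase Vcp and its cofactors (0.89, 3 tested), the related COP9 signalosome (0.53, 9 tested), shuttle factors (0.02, 5 tested), antigen presentation genes (0.01, 8 tested) and regulators (-0.09, 6 tested).

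Pomp, the chaperone that matures the core by helping the beta ring to close, had the highest fold change among the tested genes of the list. It had 78.3, 43.7 and 48.7 scaled RPKM in HFD and 179, 182 and 169 in LYC, with a wide gap between the groups. The log2 fold change of 1.66 ± 0.27 had an adjusted p of 0.00725 (limma, Benjamini-Hochberg) and was called without each library in turn (1.43 to 1.89). Its exons share 61 bases with Gm35648.

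Sem1 and Adrm1, subunits of the regulatory particle that the symbol rule does not take, also rose. Sem1, a short lid subunit, had 74.4, 51.6 and 37.9 scaled RPKM in HFD and 161, 235 and 119 in LYC. Its log2 fold change was 1.63 ± 0.34 with an adjusted p of 0.0187 (limma, Benjamini-Hochberg). Its transcript is 491 bases long, and after the length correction the value was 1.01 and no longer called. With the length correction and the replicate block together the call was kept. Adrm1, a ubiquitin receptor, had 40.3, 35.8 and 38.3 in HFD against 70.8, 105 and 65.0 in LYC (1.03 ± 0.26, adjusted p 0.0368, limma with Benjamini-Hochberg). The groups did not overlap in either gene. The call of Adrm1 was lost without HFD1 (1.05), HFD2 (0.92), HFD3 (1.00) or LYC2 (0.81). It was also lost with total library size (0.74), a pseudocount of 5 (0.96), no filter (0.89), at least 10 reads in each library (0.76) and the length correction without or with the replicate block (0.89).

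The deubiquitinase Usp14, which docks on the base, had 5.77, 6.43 and 4.56 scaled RPKM in HFD and 10.1, 17.3 and 9.76 in LYC, without overlap (log2 fold change 0.99 ± 0.33, not called). In 4 of 19 alternative fits it was called. The exons of Usp14 share 1870 bases of its 4080-base transcript with Thoc1, so some reads may belong to that gene. Uchl5, the other docking deubiquitinase, had 6.84, 4.66 and 1.89 in HFD against 8.55, 5.20 and 12.9 in LYC and was too low to be tested. Nfe2l1 had 28.4, 25.7 and 30.9 in HFD against 25.3, 18.3 and 24.3 in LYC. Its groups were separated by a narrow gap in the direction opposite to most subunits, and its log2 fold change of -0.32 ± 0.26 was not called.

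Cops2, of the COP9 signalosome, which shares its architecture with the lid, had 6.78, 9.37 and 4.56 scaled RPKM in HFD against 21.0, 18.4 and 12.0 in LYC (1.21 ± 0.36, adjusted p 0.0597, limma with Benjamini-Hochberg). Its call was kept in 2 of 6 fits that each left out a library (0.95 to 1.39), and lost with total library size (0.94), a pseudocount of 5 (0.89), no filter (1.09) and at least 10 reads in each library (0.96). Gps1, another subunit of that complex and named here after its values were seen, went the other way, with 29.9, 32.0 and 32.5 scaled RPKM in HFD and 15.3, 15.5 and 17.1 in LYC, without overlap. At -0.93 ± 0.24, its log2 fold change stayed under the limit for a call, at an adjusted p of 0.0398 (limma, Benjamini-Hochberg). The exons of Gps1 share 641 bases of its 1859-base transcript with Dus1l, so some reads may belong to that gene.

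Tap1, which carries proteasome peptides into the endoplasmic reticulum and lies beside Psmb9 in the genome, fell in LYC. It had 13.7, 14.2 and 17.5 scaled RPKM in HFD and 3.31, 3.35 and 10.2 in LYC, on 3, 3 and 11 reads in the latter. The log2 fold change was -1.43 ± 0.42 with an adjusted p of 0.0585 (limma, Benjamini-Hochberg), and the call was kept in 1 of 6 fits that each left out a library (-1.93 to -1.21) and lost with a pseudocount of 5 (-0.98). Psmb9 was higher in every LYC library, but on 7, 7 and 3 reads it was not tested. Its direction is therefore not set against that of Tap1.

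The mean profile of the 40 members over the 6 libraries was -0.11, -0.21 and -0.20 in HFD1 to HFD3 and 0.28, 0.37 and -0.13 in LYC1 to LYC3, on the log2 scale around each gene's mean. LYC3 thus fell among the HFD libraries. The genes outside the list with the most similar profile were Paics (Pearson r = 0.997), Virma (0.994) and Smarca2 (0.993), over 6 libraries. The difference between the groups is part of this likeness.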

How the data were processed

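Liver ribosome footprints were read in 3 HFD and 3 LYC libraries. The authors trimmed reads with cutadapt, used Bowtie2 and STAR against mm10 and quantified genes with FANSE2. Versions are not given in the sources used here. The authors deposited RPKM values for Ribo-seq, and raw counts with RPKM for the table labelled as mRNA. Whole reads were recovered from the RPKM steps of all 15749 genes above 0 (within 0.02 reads). Of these, 11129 used the length behind the second table, 3823 a RefSeq transcript length and 797 a fitted length. Recovered totals were 311050 to 4405541 reads per library. Of all entries, 26 had date-like names, and these were dropped only where the name was shared. In all, 4 entries with a shared name were left out.

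Low genes were filtered with edgeR's filterByExpr (edgeR 4.0.16) on recovered reads. RPKM was divided by TMM factors, 1 was added, and log2 values were fitted with limma 3.58.1 (R 4.3.3, trend, two-sided, Benjamini-Hochberg over all 5671 genes). For the counts of the second table, edgeR's quasi-likelihood test was used. The fits and the recovery were tested on simulated data. Alternatives were another scaling, pseudocount, filter, test (edgeR, DESeq2 1.42.0), a replicate block, a length correction and leaving out each library. Promoters come from RefSeq (GRCm38.p6).

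Members and lists were chosen with earlier results of these data known. Values in every library are given for members called, the catalytic pairs, the extremes of each group and, in the list of partner genes, those called plus Nfe2l1, Pomp, Adrm1, Usp14 and Uchl5. Of the partner genes called, 1 is not reported here.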

Additional observations from a re-analysis of the deposited data

How the results depend on the processing

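The number of members called (3 of 40) was 1 of 32 with at least 10 reads required in each library and 1 of 40 at p below 0.001. It was 5 of 40 by edgeR's quasi-likelihood test, by its exact test and by DESeq2. When single libraries were left out it was 1 to 10 (10 of 42 without LYC3). Members called lower (0) numbered 1 with total library size and 0 to 1 when single libraries were left out. Calls over all genes (765 of 5671) numbered 897 by edgeR's quasi-likelihood test, 1000 by its exact test and 906 by DESeq2. They numbered 1219 of 15749 with no filter, 348 of 2418 with at least 10 reads and 303 of 5671 at p below 0.001. With a pseudocount of 5 they numbered 554, and without single libraries 422 to 1302 (1302 of 7154 without LYC3). Calls in the list of partner genes (6) numbered 3 with a pseudocount of 5, 2 with at least 10 reads, 1 at p below 0.001 and 2 to 10 without single libraries. In the second table the members called (5 of 39) numbered 10 of 39 with total library size. They numbered 3 to 11 without single libraries (11 of 40 without its LYC3). The share of all its genes called was 16.6% in the main test and is not given for the other settings. Whether 10 or 11 members exceed that background can therefore not be read. The cause of the moves in these counts was not tested.

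Signs turned in 3 named genes with values near 0 or few reads. Without single libraries, Psma5 ran from -0.62 to 0.16 (0.16 without LYC3), Psmb10 from -1.72 to 0.36 (0.36 without LYC3) and Psmb6 from -0.039 to 0.28 (below 0 without HFD2 or LYC1). Psmb6 was also -0.15 with total library size, -0.12 with at least 10 reads and -0.12 after the length correction, with or without the replicate block. Replicate numbers did not pair the Ribo-seq libraries, whose deviations correlated at 0.11, 0.03 and -0.0043 for equal numbers. With the replicate block 2 members were called (Psmd14 and Psmd6), and Psmc5 kept its fold change of 1.04 but not its call.

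Depth limits the LYC values: the median tested member had 517 reads over the HFD libraries and 71 over the LYC libraries.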
